A study of Mus musculus with 12 samples.

Results

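The replication licensing genes are 10 genes whose proteins load, start and follow the replicative DNA helicase: Mcm2, Mcm3, Mcm4, Mcm5, Mcm6, Mcm7, Mcm10, Cdc6, Cdc45 and Pcna. They were found by their NCBI Gene numbers, which match 10 of the 27179 genes in the deposited table. The genes were chosen by name with earlier results from these same libraries known, so their values are given as a description and the adjusted p-values, taken over all genes, describe single genes and not the list. No cut-off on a value set the list. RNA was sequenced from whole kidneys of 12 mice, 3 in each of 4 groups. FAN1KO and wild-type mice, both on a mixed strain background by their labels and 8 to 12 weeks old, were injected intraperitoneally with saline or with cisplatin. Cisplatin was given at 2 mg/kg each week for 5 weeks. The paper instead describes its FAN1KO mice as backcrossed over several generations, and the label is used here. FAN1KO mice carry γGT1-Cre;Fan1-/-, in which Cre under the γGT1 promoter removes Fan1 in proximal tubule cells, so that the other cells of the organ keep the gene. Cisplatin is a platinum drug that crosslinks DNA, and FAN1 is a nuclease that acts in the repair of such crosslinks.

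Before a cell copies its DNA, the origin recognition complex with CDC6 and CDT1 loads rings made of the proteins MCM2 to MCM7 on each origin, a step called licensing. In S phase, kinases, CDC45 and the GINS complex turn the ring into a moving helicase, MCM10 helps to start it, and PCNA, a sliding clamp, holds the polymerases on the template. Genes for these proteins are classical targets of the E2F transcription factors and are low in resting tissue such as the adult kidney, where few tubule cells divide unless the tubule is injured.

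The start regions of these genes were read from RefSeq (GRCm38.p6), in which 9 of the 10 genes matched a window of 250 bases before to 50 bases after a transcript start. They were searched on both strands for E2F words (TTTCCCGC, TTTCGCGC, TTTGCCGC or TTTGGCGC), a search made with the expression values known. An E2F word was present in 5 of the 9 genes (Mcm3, Mcm5, Mcm6, Mcm7 and Cdc6), where 2.6% of all 27025 genes and 2.26% of all 32851 windows held one. A CCAAT box was present in 8 of the 9 genes and in 41.1% of all genes. The CHR words TTTGAA and TTCGAA were present in 3 of the 9 genes (Mcm2, Mcm7 and Cdc45) and in 21.7% of all genes. Below, 6 of these regions are written 5′ to 3′ from 250 bases before to 30 bases after the start, in lower case with each E2F word in capitals. Mcm6, Mcm5, Mcm7 and Cdc6 are shown because they hold a word, and Pcna and Mcm10 because they hold none in this window. Mcm7 has 2 start windows in the table, of which the one with a word is shown. In Mcm6 and Mcm5 a pair of words on opposite strands overlap and run together as 1 stretch of capitals.
Mcm6 (chr1:128359676-128359955, minus strand): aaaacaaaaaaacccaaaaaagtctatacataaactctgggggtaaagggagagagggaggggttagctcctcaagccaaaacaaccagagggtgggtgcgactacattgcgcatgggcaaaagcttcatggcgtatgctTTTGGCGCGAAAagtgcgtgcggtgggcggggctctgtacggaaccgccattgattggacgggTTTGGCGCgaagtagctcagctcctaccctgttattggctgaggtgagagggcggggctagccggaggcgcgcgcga
Mcm5 (chr8:75109259-75109538, plus strand): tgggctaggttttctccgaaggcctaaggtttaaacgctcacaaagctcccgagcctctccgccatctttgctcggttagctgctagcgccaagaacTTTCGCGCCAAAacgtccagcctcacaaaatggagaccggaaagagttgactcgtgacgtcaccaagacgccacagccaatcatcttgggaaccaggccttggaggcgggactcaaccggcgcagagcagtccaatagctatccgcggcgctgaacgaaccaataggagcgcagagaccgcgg
Mcm7 (chr5:138171854-138172133, minus strand): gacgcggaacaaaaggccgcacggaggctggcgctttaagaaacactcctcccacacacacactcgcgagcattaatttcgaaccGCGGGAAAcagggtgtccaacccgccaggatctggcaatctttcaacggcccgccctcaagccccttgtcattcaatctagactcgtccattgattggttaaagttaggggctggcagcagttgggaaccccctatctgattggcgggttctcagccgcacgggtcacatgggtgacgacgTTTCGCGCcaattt
Cdc6 (chr11:98907901-98908180, plus strand): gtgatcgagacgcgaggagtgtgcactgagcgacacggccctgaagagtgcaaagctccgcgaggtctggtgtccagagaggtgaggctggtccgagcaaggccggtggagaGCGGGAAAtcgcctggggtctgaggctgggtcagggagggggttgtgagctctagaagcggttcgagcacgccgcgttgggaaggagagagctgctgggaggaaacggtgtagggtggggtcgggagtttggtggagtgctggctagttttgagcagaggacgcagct
Pcna (chr2:132253151-132253430, minus strand): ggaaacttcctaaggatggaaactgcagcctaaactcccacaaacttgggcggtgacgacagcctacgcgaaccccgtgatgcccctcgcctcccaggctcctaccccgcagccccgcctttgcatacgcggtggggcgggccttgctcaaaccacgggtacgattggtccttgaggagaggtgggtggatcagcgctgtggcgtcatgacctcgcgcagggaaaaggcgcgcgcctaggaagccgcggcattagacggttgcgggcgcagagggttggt
Mcm10 (chr2:5012762-5013041, minus strand): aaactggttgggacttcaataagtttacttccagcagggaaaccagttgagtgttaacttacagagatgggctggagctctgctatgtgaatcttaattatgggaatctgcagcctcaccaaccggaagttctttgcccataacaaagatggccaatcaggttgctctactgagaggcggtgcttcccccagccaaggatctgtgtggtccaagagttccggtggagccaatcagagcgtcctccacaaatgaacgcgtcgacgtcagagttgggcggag
Of the words shown, those of Mcm6 begin at 110, 106 and 47 bases before the start, those of Mcm5 at 153 and 149, that of Cdc6 at 138, and those of Mcm7 at 165 before and 17 after it. A match of letters is a description and not a binding site, and a window without a match shows only that these letters are not in it.

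Values are TPM, read numbers scaled for gene length and for the total of the library, so that levels of different genes can be set side by side. Differences are log2 fold changes of TPM + 1 from limma with their standard errors (SE), which understate the change of genes near 0. Reads assigned to genes, recovered from the steps in the TPM, numbered 37196407 to 82935965 per library, so the lowest values rested on few reads (5 to 77 for Cdc6, 60 to 1202 for Mcm6). Fan1 itself had a TPM of 1.98 to 3.80 (saline) and 2.33 to 3.57 (cisplatin) in wild-type mice and of 1.17 to 2.28 and 1.55 to 3.51 in FAN1KO mice, and these ranges overlapped, so that Fan1 RNA did not check the labels. The libraries were of kidney by their markers, with 5 of 5 proximal tubule markers detected and a summed TPM of 1395 to 5109. In each group, 1 library held Y-linked RNA (replicate 3 of wild-type saline and of FAN1KO cisplatin, and replicate 1 of FAN1KO saline and of wild-type cisplatin). The other 8 held almost none, and the results below were also computed on those 8 alone. Cdc6 stayed below the minimum of 1 TPM in 3 libraries that a gene needed to be tested, and the other 9 members passed it also without the FAN1KO cisplatin libraries.

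In kidneys of cisplatin-treated mice, 6 of the 9 licensing genes tested rose in FAN1KO over wild-type mice, and 0 fell. The genes that rose were Mcm2, Mcm5, Mcm6, Mcm7, Cdc45 and Pcna, while Mcm3, Mcm4 and Mcm10 did not pass. Among all 14972 genes tested, 19.6% were higher and 4.37% lower, a background that is itself broad. The median log2 fold change was 0.84 for the members and 0.24 for all genes. Under saline 1 of the 9 rose, Mcm6, where 0.341% of all genes did. In FAN1KO kidneys cisplatin raised 8 of the 9, all but Mcm10, against a background of 34.9% higher and 4.9% lower. In wild-type kidneys it raised 0 of the 9 in limma, against 0.0601%, with 1 at an unadjusted p under 0.05 (as were 449 of all 14972 genes) and 0 by voom. With 2 mice per group and no Y-linked RNA, the same 4 counts were 7, 1, 8 and 0, where 28.9%, 0.781%, 44.4% and 0.401% of all genes were higher. 

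**Figure D1:**
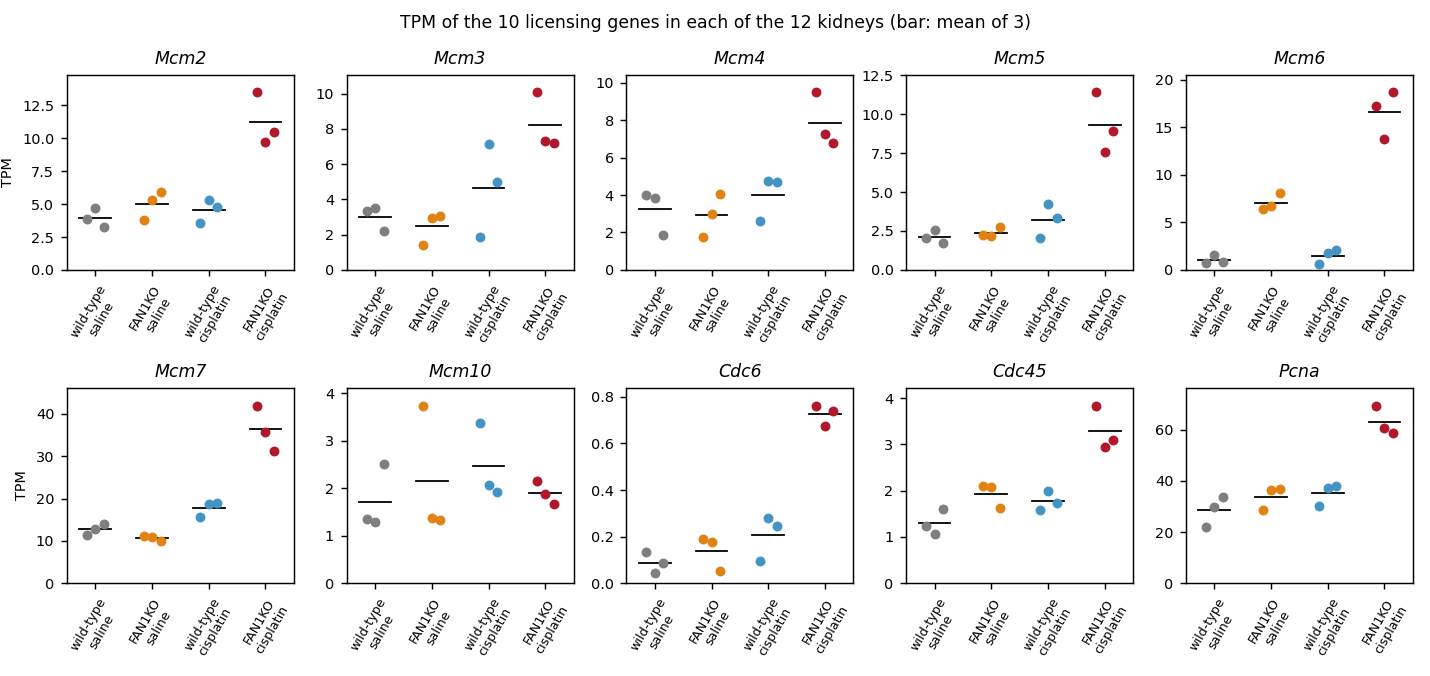
TPM of each of the 10 licensing genes in each of the 12 kidneys; each point is 1 mouse, each bar the mean of 3, and each panel has its own axis from 0. The FAN1KO cisplatin kidneys are above all other kidneys for every gene drawn except Mcm10, and Mcm6 lies at 6.40 to 8.05 TPM in FAN1KO saline kidneys, above every wild-type kidney. The share of all genes that separate in this way is not given here. By limma, 19.6% of all genes tested were higher than in wild-type cisplatin kidneys, and 34.9% higher than in FAN1KO saline kidneys.

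Mcm6 (17219, chr1:128331575-128359705, minus strand) encodes the ring subunit that sits between MCM2 and MCM4. In wild-type mice Mcm6 had a TPM of 0.754, 1.56 and 0.784 with saline and of 0.612, 1.83 and 2.05 with cisplatin, and in FAN1KO mice it had 6.40, 6.77 and 8.05 with saline and 17.3, 13.8 and 18.7 with cisplatin. All 6 FAN1KO kidneys were above all 6 wild-type kidneys, with no overlap under either treatment. The means of FAN1KO over wild-type differed 6.85-fold under saline (7.07 ± 0.867 against 1.03 ± 0.457, SD, n = 3) and 11.1-fold under cisplatin (16.6 ± 2.53 against 1.495 ± 0.773). On the log2 scale the differences were 2.01 (SE 0.25, limma adjusted p = 0.00501) and 2.86 (adjusted p = 0.000136). Cisplatin raised Mcm6 in FAN1KO kidneys by a further 1.12 (adjusted p = 0.00683), and the 3 wild-type cisplatin kidneys overlapped the wild-type saline kidneys (0.26, adjusted p = 1.0). The effect of cisplatin did not differ between the genotypes at the threshold (interaction 0.85, SE 0.36, adjusted p = 0.171).

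Mcm2 (17216, chr6:88883474-88898780, minus strand) encodes the subunit that also binds histones ahead of the fork. In wild-type mice Mcm2 had a TPM of 3.88, 4.67 and 3.25 with saline and of 3.57, 5.31 and 4.76 with cisplatin, and in FAN1KO mice it had 3.78, 5.29 and 5.88 with saline and 13.5, 9.74 and 10.5 with cisplatin. Only the FAN1KO cisplatin kidneys stood apart, and the other 3 groups overlapped. FAN1KO exceeded wild-type kidneys under cisplatin by 1.14 on the log2 scale (SE 0.20, adjusted p = 0.00377), and cisplatin raised Mcm2 in FAN1KO kidneys by 1.04 (adjusted p = 0.0030).

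Mcm5 (17218, chr8:75109468-75128439, plus strand) encodes the subunit that forms, with MCM2, the gate through which the ring opens onto DNA. In wild-type mice Mcm5 had a TPM of 2.06, 2.58 and 1.75 with saline and of 2.02, 4.25 and 3.34 with cisplatin, and in FAN1KO mice it had 2.22, 2.15 and 2.73 with saline and 11.4, 7.56 and 8.95 with cisplatin. The lowest FAN1KO cisplatin value was above the highest value of every other group. The difference of FAN1KO from wild-type was 1.31 under cisplatin (SE 0.22, adjusted p = 0.00332) and 0.11 under saline (adjusted p = 1.0). Cisplatin raised Mcm5 by 1.60 in FAN1KO kidneys (adjusted p = 0.000612), and the interaction was 1.20 (SE 0.31, adjusted p = 0.0491), a call lost in 11 of the 12 fits without 1 library (adjusted p up to 0.127).

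Mcm7 (17220, chr5:138164583-138172111, minus strand), whose introns host the miRNA genes Mir25, Mir93 and Mir106b and whose span shares 91 bases with Ap4m1, was the most abundant ring subunit in all 12 kidneys. In wild-type mice Mcm7 had a TPM of 11.4, 12.8 and 14.1 with saline and of 15.7, 18.7 and 18.9 with cisplatin, and in FAN1KO mice it had 11.2, 10.8 and 10.0 with saline and 42.0, 35.8 and 31.2 with cisplatin. In contrast to Mcm6, Mcm7 was lower in every FAN1KO saline kidney than in any wild-type saline kidney, by 0.23 on the log2 scale, a difference that did not pass the test (SE 0.13, adjusted p = 0.769). Under cisplatin FAN1KO exceeded wild-type kidneys by 0.99 (adjusted p = 0.00119). Cisplatin raised Mcm7 in FAN1KO kidneys by 1.67 (adjusted p = 4.82e-05). In wild-type kidneys the 3 cisplatin values were above the 3 saline values, by 0.44, with an unadjusted p of 0.00728 in limma and an adjusted p of 1.0. The interaction was 1.22 (SE 0.19, adjusted p = 0.0111). Mcm5 and Mcm7 were the 2 of 9 members whose response to cisplatin differed between genotypes by that test, where 5.22% of all genes had a higher interaction. With libraries scaled by their median ratio 0 members passed it, where 2.46% of all genes had a higher interaction, and Mcm7 had an adjusted p of 0.0545.

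Mcm3 (17215, chr1:20802966-20820312, minus strand) and Mcm4 (17217, chr16:15623897-15637400) encode the ring subunits beside MCM5 and MCM7 and beside MCM6 and MCM7. In wild-type mice Mcm3 had a TPM of 3.34, 3.53 and 2.20 with saline and of 1.86, 7.11 and 4.97 with cisplatin, and in FAN1KO mice it had 1.40, 2.96 and 3.03 with saline and 10.1, 7.32 and 7.19 with cisplatin. The TPM of Mcm4 was 4.01, 3.83 and 1.89, then 2.60, 4.76 and 4.71, then 1.75, 2.96 and 4.04, and then 9.50, 7.25 and 6.78 in the same order. In both genes the lowest value of each of the 4 groups came from the library with Y-linked RNA. These libraries stood apart in other ways too, with the lowest median-ratio size factor of each group (0.802, 0.855, 0.767 and 1.09, same order). They also had the lowest TPM of the endothelial markers Pecam1 (8.72, 8.99, 9.78 and 5.31) and Kdr and of the fibroblast marker Pdgfra. The part of each in these values was not tested. For Mcm3, 1 wild-type cisplatin kidney came within 0.1 TPM of the lowest FAN1KO cisplatin kidney. The difference of FAN1KO from wild-type under cisplatin was 0.81 for Mcm3 (SE 0.36, adjusted p = 0.120) and 0.84 for Mcm4 (SE 0.30, adjusted p = 0.0631), and neither passed. With 1 library left out Mcm3 ran from 0.39 (without wild-type cisplatin replicate 1) to 1.14 (without wild-type cisplatin replicate 2, adjusted p = 0.0476), the 1 such fit in which it passed. Mcm4 passed with voom (1.03, adjusted p = 0.0460), without wild-type saline replicate 3 (adjusted p = 0.0424) and without FAN1KO saline replicate 1 (adjusted p = 0.0462). With Y-linked RNA as a covariate both passed (adjusted p = 0.00964 and 0.00147), in a fit in which 40.3% of all genes were higher. On the 8 libraries without Y-linked RNA Mcm4 passed (0.70, adjusted p = 0.0191) and Mcm3 did not (0.46, adjusted p = 0.102). Cisplatin raised both in FAN1KO kidneys, Mcm3 by 1.43 (adjusted p = 0.0101) and Mcm4 by 1.21 (adjusted p = 0.00949).

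**Figure D2:**
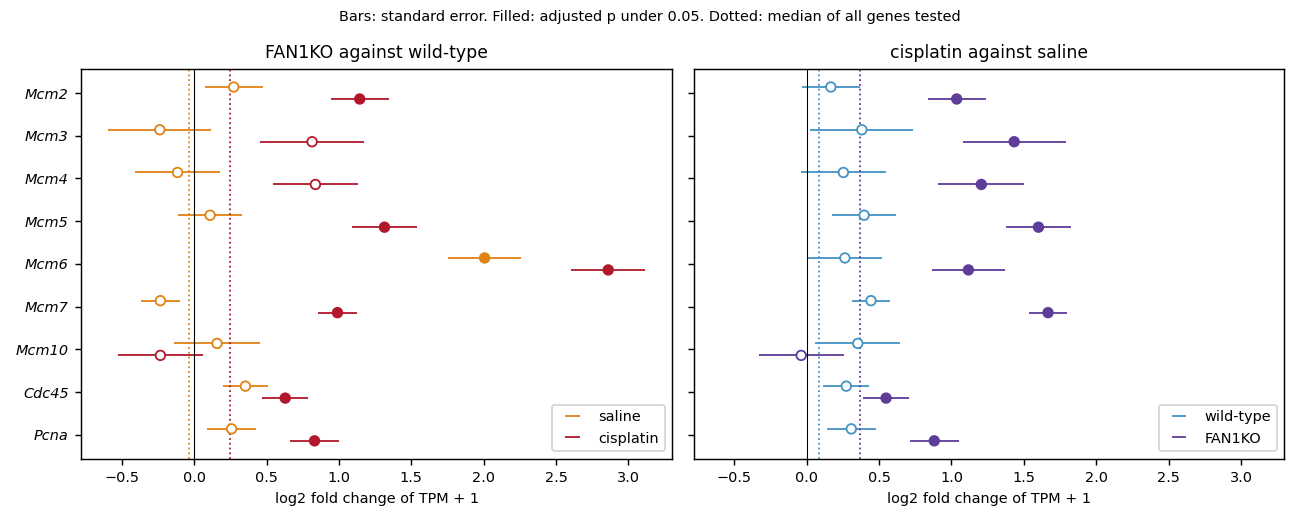
Log2 fold changes of TPM + 1 with their SE for the 9 licensing genes tested, FAN1KO against wild-type on the left and cisplatin against saline on the right; filled points have an adjusted p under 0.05 and dotted lines mark the median of all genes. Filled points lie to the right for 6 genes under cisplatin and for Mcm6 alone under saline, and Mcm10 lies near 0 in FAN1KO kidneys (-0.04).

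Mcm6 and its 5 ring partners stood in different proportions in the 2 genotypes. The proteins form rings with 1 copy of each, so the RNA of Mcm6 was set against the geometric mean TPM of Mcm2, Mcm3, Mcm4, Mcm5 and Mcm7 in the same library, which removes any scaling between libraries. Since this comparison was drawn up with the values in view, it has no test. In wild-type kidneys Mcm6 was 17.3% to 34.8% of its partners' mean and ranked 6 of 6 in every library. In FAN1KO kidneys it was 120% to 216% and ranked 2 of 6 in every library, behind Mcm7. In wild-type mice the log2 ratio was -2.46, -1.56 and -2.02 with saline and -2.53, -1.89 and -1.52 with cisplatin. In FAN1KO mice it was 1.11, 0.74 and 0.82 with saline and 0.26, 0.36 and 0.80 with cisplatin, above every wild-type kidney. The group means were -2.02 ± 0.45 and 0.89 ± 0.19 under saline and -1.98 ± 0.51 and 0.48 ± 0.29 under cisplatin (SD, n = 3), so the genotypes were 2.91 and 2.46 apart. Between treatments the means were closer, 0.035 apart in wild-type kidneys, and in FAN1KO kidneys the mean decreased by 0.41 with cisplatin, where the ranges overlapped. The summed TPM of the 6 ring genes was 23.9 to 29.0 with saline and 26.3 to 41.9 with cisplatin in wild-type mice, and 26.8 to 33.8 and 81.5 to 103.7 in FAN1KO mice.

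**Figure D3:**
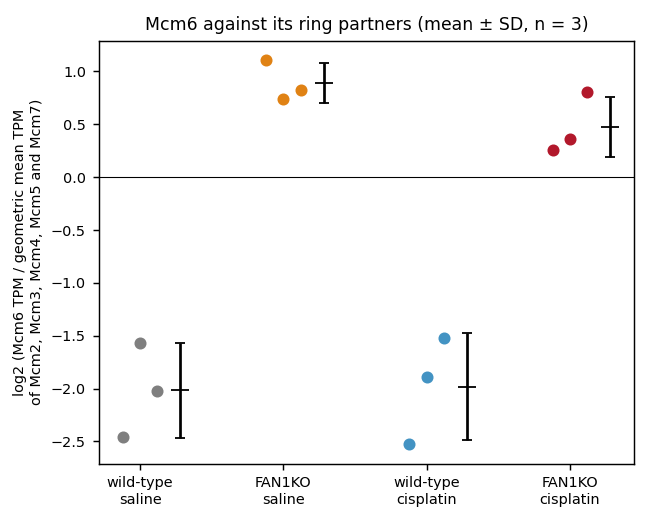
Log2 ratio of Mcm6 TPM to the geometric mean TPM of its 5 ring partners in each of the 12 kidneys (points), with the mean and SD of 3 to the right of each group. All 6 FAN1KO kidneys lie above 0 (lowest 0.26) and all 6 wild-type kidneys below it (highest -1.52).

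Across the 12 libraries, log2(TPM + 1) of the 5 partners correlated with each other at a Pearson r of 0.819 to 0.96 (10 pairs). Mcm6 correlated with the same 5 genes at 0.531 to 0.86, and Mcm10 at -0.419 to 0.0765. These values share the 4 groups and the library scaling, and are given as a description. The tested genes outside the list whose pattern was most like Mcm6 alone were Klhdc4 (r = 0.987), 2610507I01Rik (0.979), Nucb2 (0.977), AI506816 (0.976) and Smim6 (0.973). Like Mcm6, each had a higher mean TPM in both FAN1KO groups, for example 2.02, 17.3, 2.41 and 35.3 for Smim6 in wild-type then FAN1KO kidneys under saline and in wild-type then FAN1KO kidneys under cisplatin. Most like the mean of the 9 standardised members were Rrp7a (0.991), Dync1h1 (0.989), Chtf18 (0.989), Utp4 (0.987) and Ddx27 (0.986). Of these Chtf18, a part of an alternative PCNA loader, had mean TPM of 0.287, 0.685, 0.710 and 2.63 in the same order of groups, highest in FAN1KO cisplatin kidneys, the group through which alone it passed the minimum on TPM.

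Under saline, Mcm6 was 1 of 51 genes called higher in FAN1KO kidneys, the 16th by fold change, and 41 of the 51 were also higher under cisplatin, a comparison of other mice. Its neighbours on chromosome 1 were then read, a choice made after its values were seen. Of the 6 other genes tested within 500 kb, 0 passed under saline, and Ubxn4, 52.2 kb away, passed under cisplatin (0.54, adjusted p = 0.00563). Under saline Ubxn4 (0.30, adjusted p = 0.374) and Dars, 4.0 kb away (0.28, adjusted p = 0.326), had no overlap between the genotypes but did not pass the test. Dars, which encodes the aspartyl-tRNA synthetase, had a mean TPM of 46.9 ± 2.08 in FAN1KO and 38.5 ± 0.741 in wild-type saline kidneys (SD, n = 3), against the 6.85-fold difference of Mcm6. Rab3gap1, Zranb3, R3hdm1 and Cxcr4 had log2 fold changes of -0.20 to 0.06 under saline.

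**Figure D4:**
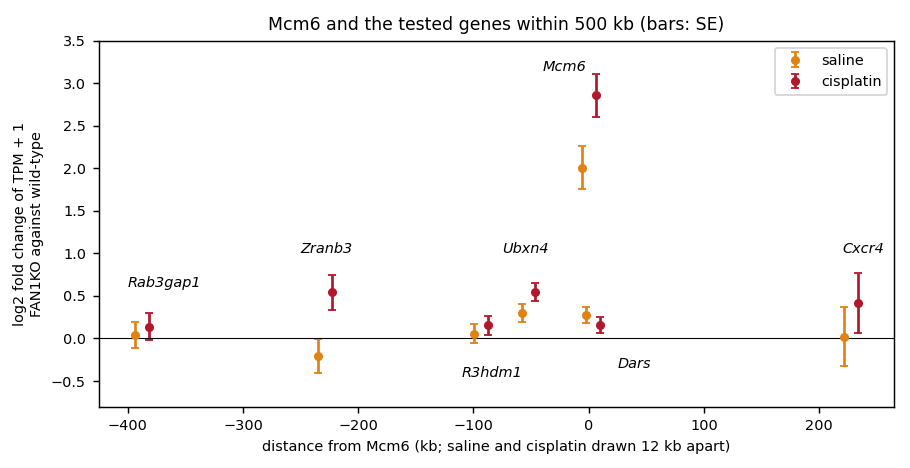
Log2 fold change of TPM + 1 (FAN1KO against wild-type, bars SE) of Mcm6 and the 6 other tested genes within 500 kb, by distance from Mcm6 in kb, with saline and cisplatin offset for clarity. Mcm6 lies at 2.01 and 2.86, and the neighbours lie at or below 0.54.

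Cdc45 (12544, chr16:18780447-18811972, minus strand) encodes the factor that joins the MCM ring to the GINS complex, and its span shares 1687 bases with the lncRNA gene Gm52240 and 237 with Ufd1, so reads there could be split among them. In wild-type mice Cdc45 had a TPM of 1.23, 1.07 and 1.61 with saline and of 1.59, 1.99 and 1.74 with cisplatin, and in FAN1KO mice it had 2.11, 2.07 and 1.62 with saline and 3.84, 2.95 and 3.09 with cisplatin. The 3 FAN1KO saline values were above the 3 wild-type saline values by a narrow margin, without passing the test (0.35, unadjusted p = 0.0480, adjusted p = 0.588 in limma). Under cisplatin FAN1KO exceeded wild-type kidneys by 0.63 (SE 0.16, adjusted p = 0.0182), and cisplatin raised Cdc45 in FAN1KO kidneys by 0.55 (adjusted p = 0.0197). Neither passed on only the 6 libraries of each comparison (adjusted p = 0.0576 and 0.0531), where 5 and 7 members did. In these fits 11.5% and 31.4% of all genes were higher, in place of 19.6% and 34.9%. Without FAN1KO cisplatin replicate 1 neither passed (0.54 and 0.46, adjusted p = 0.0774 and 0.0788), without wild-type cisplatin replicate 1 the former did not (0.58, adjusted p = 0.0633), and without FAN1KO saline replicate 3 the latter did not (0.47, adjusted p = 0.0710).

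Pcna (18538, chr2:132249286-132253180, minus strand), the sliding clamp that also serves in repair synthesis, was the most abundant of the 10 genes. In wild-type mice Pcna had a TPM of 21.9, 29.6 and 33.8 with saline and of 30.1, 37.1 and 38.0 with cisplatin, and in FAN1KO mice it had 28.5, 36.3 and 36.9 with saline and 69.4, 60.8 and 58.7 with cisplatin. The FAN1KO cisplatin kidneys lay above all others, and the other 3 groups overlapped. FAN1KO exceeded wild-type kidneys under cisplatin by 0.83 (SE 0.17, adjusted p = 0.00705), and cisplatin raised Pcna in FAN1KO kidneys by 0.88 (adjusted p = 0.00287). The pseudogenes Pcna-ps1 and Pcna-ps2 are listed under its name, and their likeness to Pcna was not measured here. Reads could be split among them, which leaves the level of Pcna uncertain.

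Cdc6 (23834, chr11:98907709-98923942, plus strand), the loader that brings the MCM ring to the origin, had the lowest TPM of the 10 genes. In wild-type mice Cdc6 had a TPM of 0.133, 0.0450 and 0.0849 with saline and of 0.0944, 0.280 and 0.244 with cisplatin, and in FAN1KO mice it had 0.189, 0.178 and 0.0510 with saline and 0.763, 0.673 and 0.739 with cisplatin. The FAN1KO cisplatin kidneys were above every other kidney, with 71 to 77 reads each against 5 to 29 elsewhere. In a limma fit without the minimum on TPM, FAN1KO exceeded wild-type kidneys under cisplatin by 0.52 (SE 0.07, adjusted p = 0.00165). The interaction of Cdc6 passed in that fit (0.45, adjusted p = 0.0355), while that of Mcm5 did not (adjusted p = 0.0719). It called 2 of the 10 members for the interaction, where 3.68% of all genes had a higher one.

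Mcm10 (70024, chr2:4990724-5012791, minus strand), which binds the helicase as it starts, did not pass in any comparison. In wild-type mice Mcm10 had a TPM of 1.36, 1.28 and 2.51 with saline and of 3.38, 2.07 and 1.93 with cisplatin, and in FAN1KO mice it had 3.74, 1.38 and 1.33 with saline and 2.15, 1.87 and 1.68 with cisplatin. All groups overlapped, and the highest value of each group other than FAN1KO cisplatin came from the library with Y-linked RNA. The differences ran from -0.23 to 0.35 (SE 0.29) (adjusted p = 0.594 to 1.0). On the 8 libraries without Y-linked RNA the difference of FAN1KO from wild-type under cisplatin was 0.0029 (SE 0.15) and that of cisplatin from saline in FAN1KO kidneys 0.35 (adjusted p = 0.0774). 

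The other genes of the pathway were read from 4 lists of genes, drawn from general knowledge with earlier results known. Some of their genes reached the minimum on TPM only through the FAN1KO cisplatin libraries. High values in that group decided that such genes were tested, and 257 of the 608 among all genes were called higher. The counts are therefore given for the genes that passed the minimum in the other 9 libraries. Among all genes of that kind 18.6% were higher, and the first list lay near that share. Of the origin recognition and loading control genes, 2 of 11 rose in FAN1KO over wild-type kidneys under cisplatin and 0 fell, with a list median of 0.36. They were Cdt1 (0.97, adjusted p = 0.00404), the loading factor that works with CDC6, and Orc2 (0.43, adjusted p = 0.0307), a subunit of the origin recognition complex. Orc2 did not pass with median-ratio scaling (0.16, adjusted p = 0.328), on the 6 cisplatin libraries alone (adjusted p = 0.0697), with the replicate block (0.0569) or in 5 of the 12 fits without 1 library, each of them a fit without a cisplatin library (adjusted p up to 0.126). Cdt1 had a TPM of 4.12, 4.45 and 4.39 in wild-type and 8.84, 8.52 and 11.1 in FAN1KO cisplatin kidneys, with no overlap. Of the helicase activation and fork genes, 5 of 10 rose and 0 fell (median 0.53), with the GINS subunits Gins2 (2.31) and Gins1 (0.77) among them. Wdhd1, which links helicase and polymerase, was called as well (0.83) but was below 1 TPM in the other 9 libraries (at most 0.934). Wdhd1 did not pass on the 6 cisplatin libraries alone (adjusted p = 0.0740), nor did Gins1 with median-ratio scaling (0.53, adjusted p = 0.105), and each lost its call in some fits without 1 cisplatin library (adjusted p up to 0.0925 and 0.0694). Gins2 had a TPM of 1.11, 2.53 and 3.87 in wild-type and of 12.7 to 19.3 in FAN1KO cisplatin kidneys (adjusted p = 0.000586), which puts it next to Mcm6 by size of change. Of the polymerase, clamp loader and synthesis genes, 16 of 30 rose and 0 fell (median 0.55), led by the chromatin assembly subunit Chaf1b (1.87), the ligase Lig1 (1.495) and the ribonucleotide reductase subunit Rrm2 (1.42), and Dscc1 and Chtf18 were called but at most at 0.588 and 0.977 TPM in the other 9 libraries. Of the proliferation markers, 5 of 7 rose and 0 fell (median 0.79), led by the mitotic kinase Cdk1 (1.48) and Top2a (1.42). The other 4 proliferation markers tested, Aurkb (1.28), Ccnb1, Ccne1 and Mki67, were called but passed the minimum only through the FAN1KO cisplatin libraries.

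Under saline 0 genes of these 4 lists passed in either direction in limma or by voom, with list medians of -0.08, 0.0019, -0.03 and 0.08. In limma 1 of 11, 0 of 11, 1 of 32 and 1 of 11 had an unadjusted p under 0.05, where 1255 of all 14972 genes did. With median-ratio scaling or the Y-linked covariate 1 synthesis gene passed under saline, Tyms, the thymidylate synthase (0.72 and 0.67, adjusted p = 0.0436 and 0.0211), which is named after its values were seen. Of the genes that passed the minimum in the other 9 libraries, cisplatin raised 5 of 11, 9 of 10, 23 of 30 and 6 of 7 in FAN1KO kidneys, against 34% of all such genes, with the first list again the nearest to that share, and 1 synthesis gene fell. It raised 0 of all the list genes tested in wild-type kidneys, with 0, 1, 2 and 0 at an unadjusted p under 0.05 (449 of all 14972 genes) and 0 by voom. With the Y-linked covariate 1 synthesis gene passed there, the primase subunit Prim1 (0.63, adjusted p = 0.0167), also named after its values were seen, where 0.381% of all genes were higher. Without FAN1KO cisplatin replicate 1, the counts of FAN1KO over wild-type under cisplatin, over all list genes tested, were 1, 1, 8 and 6 in place of 2, 6, 18 and 9, where 7.81% of all genes were higher in place of 19.6%. Without wild-type cisplatin replicate 1 they were 1, 1, 10 and 6, where 9.63% were.

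**Figure D5:**
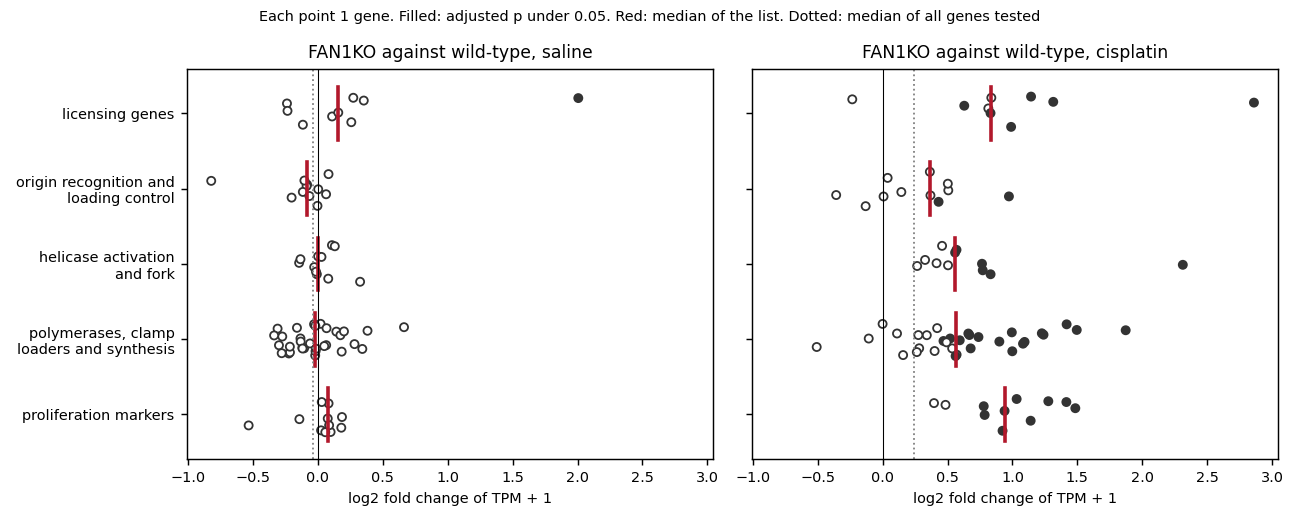
Log2 fold changes of TPM + 1 of FAN1KO against wild-type kidneys under saline and under cisplatin for the licensing genes and 4 lists of replication and proliferation genes; each point is 1 gene, filled with an adjusted p under 0.05, red bars are list medians and the dotted line is the median of all genes. Under saline the medians lie between -0.08 and 0.16 and Mcm6 alone is filled, whereas under cisplatin they lie between 0.36 and 0.94, with the 7 genes included that passed the minimum only through FAN1KO cisplatin kidneys.

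Other measures moved with the rise in FAN1KO cisplatin kidneys. The summed TPM of the 5 proximal tubule markers was 1395 to 2504 there and 3336 to 5109 in the other groups, and 4 of the 5 fell against wild-type cisplatin kidneys. That of the 2 injury markers Havcr1 and Lcn2 was 592.9 to 944.0 there and 1.25 to 105.3 elsewhere, and both rose. The 8 leukocyte markers summed to 102.3 to 219.1 there, with overlap with wild-type cisplatin kidneys (31.3 to 127.4), and Lyz2 was 75.9 to 153 of it. Of the 7 tested, 1 rose against those kidneys and 3 with cisplatin in FAN1KO mice. In these 2 comparisons 19.6% and 34.9% of all genes were higher and 4.37% and 4.9% lower, so the leukocyte counts do not stand out from the background. The 2 erythroid markers summed to 0.340 to 1.01 there and 3.57 to 39.7 elsewhere, and Alas2, the heme synthesis enzyme of red cell precursors, fell against wild-type cisplatin kidneys (-4.02, adjusted p = 0.00152). Of the 4 loop and distal nephron markers Aqp2, a water channel of the collecting duct, rose (1.39, adjusted p = 0.0455), with a summed TPM of the list of 2763 to 3296 there and 1410 to 3881 elsewhere. The 3 endothelial markers summed to 8.42 to 29.4 there and 15.2 to 78.8 elsewhere, and 0 of them passed against wild-type cisplatin kidneys. With cisplatin in FAN1KO mice, where 8 of 9 members rose, 1 of the 3 endothelial, 1 of the 2 podocyte and 5 of the 5 proximal tubule markers fell. The podocyte (7.03 to 49.7 there, 13.0 to 67.2 elsewhere) and fibroblast sums (19.7 to 54.7 there, 10.1 to 65.8 elsewhere) overlapped. Their part in the result was not tested. Under saline, where Mcm6 differed, 0 of the marker genes passed, and the leukocyte sums were 17.1 to 40.7 in FAN1KO and 26.5 to 53.4 in wild-type kidneys. The injury sums were 1.25 to 29.7 and 22.9 to 63.8, and the erythroid sums 3.57 to 8.51 and 5.33 to 35.6, in the same order. The proximal tubule sums did not overlap, at 4056 to 5109 in FAN1KO and 3889 to 4040 in wild-type saline kidneys. Most of each sum was Slc34a1, which did overlap (3563, 2635 and 3689 in FAN1KO, 2681, 2706 and 2717 in wild-type). Lrp2, Cubn and Aqp1 overlapped as well, and only Slc5a2 was higher in every FAN1KO saline kidney (317 to 506 against 270 to 280). In whole kidneys, a change in the number of cells of a type and a change in the RNA of each cell cannot be told apart.

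TPM share a fixed total, and the median of all genes lay at 0.24 between the genotypes under cisplatin and at 0.37 between the treatments in FAN1KO kidneys. Relative to that median, the differences under cisplatin were 0.90 for Mcm2, 1.07 for Mcm5, 2.62 for Mcm6, 0.74 for Mcm7, 0.38 for Cdc45 and 0.59 for Pcna. When the libraries were scaled by their median ratios, higher calls among all genes made up 54.1% in place of 81.8%, and in cisplatin against saline in FAN1KO kidneys 52.8% in place of 87.7%. The share of all genes called higher was then 9.09% and 15.4%. Under that scaling Mcm2, Mcm5, Mcm6 and Mcm7 passed, while Cdc45 (0.41, adjusted p = 0.121) and Pcna (0.55, adjusted p = 0.0653) did not. Neither did these genes pass for cisplatin against saline in FAN1KO kidneys (0.23 and 0.45, adjusted p = 0.340 and 0.0884), so 6 of 9 members did. Mcm6 passed under saline as well (2.09, adjusted p = 0.00195).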

How the data were processed

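Whole-kidney RNA was sequenced from 12 mice, and the groups and replicate numbers came from the labels. The deposited table gave TPM by NCBI Gene number for 27179 genes, and all 12 columns were used (columns left out, 0). The submitters' notes name mm10 and limma, and the aligner and annotation are not given in the sources used here. RefSeq (GRCm38.p6) gave names to 25275 identifiers and all coordinates and sequences. The authors' TPM fell in whole reads per library for 100% of the 22557 genes above 0 (tolerance 0.02 of a read). The members and lists were chosen with earlier results of these data known.

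Genes that reached 1 TPM in 3 or more libraries were compared on log2(TPM + 1) by limma 3.58.1 in R 4.3.3, with 4 group means, all 12 libraries, a mean-variance trend and Benjamini-Hochberg adjustment over 14972 genes (threshold 0.05). P-values rest on 1 spread per gene, taken between mice within all 4 groups together and drawn towards the trend over all genes. A saline library can therefore change the p-value of a comparison between cisplatin groups. Among the pathway lists, the 3 members with the largest change of those called in FAN1KO against wild-type under cisplatin are named, with all 10 members and the 5 genes most like them. The values of 2 genes of the lists are not reported here. Tested on simulated data for that comparison, 172 of 192 genes changed were recovered, with 10 false calls. The alternatives were a pseudocount of 0.1, no minimum, only 6 libraries, median-ratio scaling, no trend, a replicate block, a Y-linked covariate, voom on the recovered reads, each library left out and, chosen after seeing the data, only the 8 libraries without Y-linked RNA. Python 3.11.15, numpy 2.4.6, pandas 2.3.3, numba 0.67.0 and matplotlib 3.10.9 were also used.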

Additional observations from a re-analysis of the deposited data

Results flagged for a closer look

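The response to cisplatin differed between FAN1KO and wild-type kidneys by the interaction in limma, given here as the difference of the 2 log2 changes, in 2 of the 9 licensing genes and in 1 of 11, 1 of 11, 6 of 32 and 4 of 11 tested genes of the origin, helicase, synthesis and proliferation lists, against 5.22% of all genes. Some of these list genes passed the minimum on TPM only through the FAN1KO cisplatin libraries. Without such genes the list counts were 1 of 11, 1 of 10, 5 of 30 and 3 of 7. Of all genes that passed in the other 9 libraries, 4.73% had a higher interaction. The counts over all list genes tested were not stable. With 1 library left out they ran from 0 to 1 (origin), 0 to 1 (helicase), 0 to 6 (synthesis, 0 without FAN1KO cisplatin replicate 1 and 1 without wild-type saline replicate 1 or 2) and 0 to 2 (proliferation). The share of all genes with a higher interaction moved too, from 1.45% to 6.55% in these fits. It was 1.46%, 1.45% and 1.96% in the 3 fits named. The 4 proliferation genes became 0 with a pseudocount of 0.1, voom, the replicate block or median-ratio scaling. In those fits 3.77%, 4.8%, 2.34% and 2.46% of all genes had a higher interaction. With the Y-linked covariate the 4 counts were 3, 6, 18 and 8, where 27.3% of all genes had a higher interaction. The list genes named here were chosen for their difference between genotypes under cisplatin, which enters the interaction, so their values are a description. Among the licensing genes it was 1.20 for Mcm5 (1.60 in FAN1KO and 0.40 in wild-type kidneys, adjusted p = 0.0491) and 1.22 for Mcm7 (1.67 and 0.44, adjusted p = 0.0111). Among the other replication genes it was 1.99 for Gins2 (2.25 and 0.26, adjusted p = 0.02), 2.15 for Chaf1b (2.45 and 0.30, adjusted p = 0.0190), 1.58 for Rrm2 (1.68 and 0.11, adjusted p = 0.0366) and 1.175 for Cdt1 (1.35 and 0.17, adjusted p = 0.0248). For the proliferation markers Cdk1 and Top2a it was 1.39 in both (1.76 and 0.37 for Cdk1, adjusted p = 0.0409, and 1.77 and 0.38 for Top2a, adjusted p = 0.0487). With 1 library left out in turn, Mcm7 passed in all 12 fits (adjusted p up to 0.0341), whereas Top2a failed in 12 of 12 (0.0524 to 0.124), Mcm5 in 11 (up to 0.127), Cdk1 in 9 (up to 0.105), Rrm2 in 9 (up to 0.101), Cdt1 in 6 (up to 0.0647), Gins2 in 3 (up to 0.0569) and Chaf1b in 2 (up to 0.0548). With all 12 libraries, Mcm5, Cdk1 and Top2a also failed with a pseudocount of 0.1, voom, the replicate block and median-ratio scaling, Mcm5 and Top2a with no minimum on TPM, Cdt1 with the block and median-ratio scaling, Rrm2 with no minimum and the block, and Mcm7 with median-ratio scaling. Gins2 and Chaf1b passed in each of these alternatives.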

How the results depend on the processing

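Mcm6 was the 1 member called under saline, and 0 were called for cisplatin in wild-type kidneys, in every alternative run. With 1 library left out, 5 to 7 members were called in FAN1KO against wild-type under cisplatin, where 7.81% to 21% of all genes were higher. For cisplatin in FAN1KO kidneys 7 to 8 members were called, where 21% to 37.4% of all genes were higher. The interaction, with 2 members called, gave 1 with a pseudocount of 0.1, 1 with voom, 1 on the 8 libraries without Y-linked RNA, 0 with median-ratio scaling and 5 with the Y-linked covariate (3.77%, 4.8%, 13.4%, 2.46% and 27.3% of all genes higher, against 5.22%), and 1 to 2 with 1 library left out (1.45% to 6.55% of all genes). Over all list genes tested, the 2 origin genes called under cisplatin became 4 with no minimum, 1 on 6 libraries, 1 with median-ratio scaling, 6 with the Y-linked covariate and 5 on the 8 libraries (14%, 11.5%, 9.09%, 40.3% and 28.9% of all genes, against 19.6%). With 1 library left out they became 1 to 4 (1 without FAN1KO cisplatin replicate 1 or 2 or wild-type cisplatin replicate 1 or 2, and 4 without FAN1KO cisplatin replicate 3), where 7.81%, 10.3%, 9.63%, 15.9% and 19.7% of all genes were higher in the fits named. The 5 that cisplatin raised in FAN1KO kidneys became 1, 3 and 2 without FAN1KO cisplatin replicate 1, FAN1KO cisplatin replicate 2 and FAN1KO saline replicate 1 (21%, 24.7% and 23.3% of all genes, against 34.9%). They became 3 on 6 libraries, 2 with median-ratio scaling and 8 with the Y-linked covariate (31.4%, 15.4% and 52.9%). The 6 helicase genes called under cisplatin became 3 on 6 libraries, 3 with median-ratio scaling and 1 to 6 with 1 library left out. The 18 synthesis genes became 10 on 6 libraries and 8 to 20 with 1 library left out, the lowest without FAN1KO cisplatin replicate 1 (also 10 without FAN1KO cisplatin replicate 2). In these fits 11.5% (6 libraries), 9.09% (median-ratio scaling) and 7.81% to 21% (1 library left out) of all genes were higher. The replicate numbers do not pair the mice (deviations of same-numbered libraries correlated at -0.606 to 0.60). With the replicate block 1 interaction call and 1 origin gene remained in number. The list interaction counts went from 1, 1, 6 and 4 to 0, 1, 3 and 0, where 2.34% of all genes had a higher interaction in place of 5.22%. The member counts in the other comparisons were the same. In that fit 15.9% of all genes (FAN1KO against wild-type, cisplatin) and 32% (cisplatin, FAN1KO) were higher, in place of 19.6% and 34.9%. With a pseudocount of 1 on each TPM the log2 ratio of Mcm6 to its partners was -1.35 in wild-type saline and -1.41 in wild-type cisplatin kidneys, with genotype differences of 2.05 and 1.84; against the median partner it was 1.24 in FAN1KO saline and 0.84 in FAN1KO cisplatin kidneys. Changes of sign were seen only in values that had not passed: with 1 library left out, Mcm3 ran from -0.40 to 0.0071 and Mcm4 from -0.37 to 0.12 (FAN1KO against wild-type, saline), Mcm4 from -0.0034 to 0.48 (cisplatin, wild-type), and Mcm10 from -0.18 to 0.36 (FAN1KO against wild-type, saline) and from -0.21 to 0.30 (cisplatin, FAN1KO). On the 8 libraries Mcm10 was at 0.0029 (FAN1KO against wild-type, cisplatin) and 0.35 (cisplatin, FAN1KO). The causes were not tested. With 3 mice per group and few reads in Cdc6 and Mcm6 in wild-type kidneys, small differences may have been missed. The smallest difference that could be detected in these genes is not given here.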
